A study of Homo sapiens with 6 samples.

Results

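The heat-shock chaperones described here are 10 genes, HSPB1, HSPB8, CRYAB, HSPA1A, HSPA1B, HSPA8, HSP90AA1, HSPH1, DNAJB1 and BAG3, of the 57150 genes in a table of RNA-seq values. Each was found by its gene symbol, and each symbol had 1 row. HSPB1 was chosen by its higher FPKM in the column labelled KD, and the other 9 genes were added to show how the rest of the heat-shock response compared with it. The values of HSPB1 in this comparison are therefore a description.

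The samples were pools of K562 cells, an established human leukemia line, collected 72 h after siRNA transfection. In 3 pools, siRNAs against both αCP1 and αCP2 were used, and these poly(C)-binding proteins are encoded by PCBP1 and PCBP2. Another 3 pools received control siRNAs, so all 6 pools had been transfected. The comparison asks how mRNA levels differed after co-depletion of the αCP proteins. The table does not separate the pools. Its columns are labelled KD and CTRL, and under each label a gene has 1 FPKM (fragments per kilobase of transcript, scaled to the mapped fragments) and 1 estimated count. Values of single pools are not among the values used here, so no spread between replicates is given. The table's columns with the authors' own comparison were not used, and no test was made from the 1 value per group.

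Some facts of the table limit every value below. The estimated counts summed to 13699340 in the KD column and 11680567 in the CTRL column. Both totals are below the mapped read pairs that the study lists for any of its libraries. How 3 pools gave 1 count is not stated, so the counting intervals below take each estimated count as a plain count. By FPKM, neither targeted mRNA was clearly lower in KD. PCBP1 had an FPKM of 184.1 in KD and 187.8 in CTRL, a ratio of 0.98. PCBP2 was higher in KD, at 530.8 and 342.4, a ratio of 1.55. The study describes its own check of the depletion on mRNA and protein, which is not analysed here. The groups are therefore named only as their columns are labelled. Of 16 erythroid genes, 8 were listed at 0 in both columns, among them the defining factors GATA1, TAL1 and KLF1, and their summed FPKM was 181.7 in KD and 69.9 in CTRL, mostly from the embryonic globin gene HBE1 (152.9 and 35.4). Among 8 epithelial genes, an FPKM above 5 in KD and CTRL alike was found for 4, KRT18 highest of them, KRT19 was listed at 0 in both, and their sum was 4370 in KD and 3190 in CTRL. Among 8 fibroblast and muscle genes, VIM was the 1 above 5 in KD and CTRL alike, COL1A2 was listed at 0 in both, and their sum, mostly VIM, was 716.7 in KD and 555.3 in CTRL. The defining erythroid factors GATA1, TAL1 and KLF1 were thus listed at 0 in both columns. Of the 16 erythroid genes, 2 were above 5 in KD and CTRL alike, HBE1 and TFR2 (17.4 in KD and 23.7 in CTRL). Of the 8 epithelial genes, 3 were under 1 in KD and CTRL alike. The part of these markers in the chaperone values was not tested, and in bulk RNA fewer cells of a type and less RNA per cell cannot be told apart.

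Molecular chaperones bind unfolded or partly folded proteins. Small heat shock proteins such as HSPB1 (HSP27), HSPB8 and CRYAB (αB-crystallin) form oligomers that hold unfolding clients without using ATP. HSP70 proteins then bind and release clients in an ATP-driven cycle that is started by HSP40 proteins such as DNAJB1 and reset by nucleotide exchange factors such as HSPH1 and BAG3, and HSP90 proteins act later on kinases and receptors. When unfolded proteins accumulate, heat shock factor 1, HSF1, binds heat shock elements in the promoters of many of these genes. A heat shock element is built of inverted repeats of the unit nGAAn. The most inducible of its targets include HSPA1A, HSPA1B, HSPA6 and DNAJB1, which tend to move together when the factor is active.

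The promoters of 4 members are shown because they put the heat shock element of the gene with the largest difference, HSPB1, beside those of other members. These are an inducible HSP70 gene, HSPA1A, the constitutive HSP70 gene, HSPA8, and HSPB8, the only other small heat shock protein among the members with a window. The sequences are RefSeq windows of GRCh38.p14, from 250 bases before to 50 bases after the annotated start, on the coding strand, and the capitals mark matches to GAANNTTC or TTCNNGAA, each of which reads the same on both strands. They lie at chr7:76302423-76302722 (HSPB1, plus strand), chr12:119178681-119178980 (HSPB8, plus strand), chr6:31815293-31815592 (HSPA1A, plus strand) and chr11:123062087-123062386 (HSPA8, minus strand).

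HSPB1: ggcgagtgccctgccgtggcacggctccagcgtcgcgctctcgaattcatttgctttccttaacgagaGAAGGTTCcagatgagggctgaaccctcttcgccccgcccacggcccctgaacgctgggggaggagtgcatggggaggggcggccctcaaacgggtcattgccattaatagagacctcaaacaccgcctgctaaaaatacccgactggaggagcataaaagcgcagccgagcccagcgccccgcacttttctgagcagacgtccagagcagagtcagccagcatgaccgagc

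HSPB8: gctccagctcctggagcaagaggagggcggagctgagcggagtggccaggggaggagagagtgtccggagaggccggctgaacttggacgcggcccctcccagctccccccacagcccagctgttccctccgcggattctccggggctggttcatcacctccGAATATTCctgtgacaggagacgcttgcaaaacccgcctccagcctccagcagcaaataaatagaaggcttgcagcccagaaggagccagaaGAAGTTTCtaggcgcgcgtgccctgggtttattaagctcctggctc

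HSPA1A: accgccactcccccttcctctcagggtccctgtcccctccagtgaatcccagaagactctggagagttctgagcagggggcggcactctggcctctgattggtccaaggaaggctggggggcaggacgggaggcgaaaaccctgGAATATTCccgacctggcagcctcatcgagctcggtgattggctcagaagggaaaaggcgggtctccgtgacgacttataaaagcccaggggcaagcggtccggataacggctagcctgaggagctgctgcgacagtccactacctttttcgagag

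HSPA8: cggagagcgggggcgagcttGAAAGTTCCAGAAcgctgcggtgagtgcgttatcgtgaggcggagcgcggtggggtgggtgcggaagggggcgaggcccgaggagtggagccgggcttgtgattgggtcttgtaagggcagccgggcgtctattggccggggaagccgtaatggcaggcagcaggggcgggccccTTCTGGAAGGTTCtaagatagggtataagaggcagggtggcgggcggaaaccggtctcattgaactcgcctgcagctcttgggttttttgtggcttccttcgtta

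The HSPB1 window held 1 match, which began 182 bases before the start, and the HSPA1A window also held 1, which began 106 bases before it. The HSPB8 window held 2 matches. In the HSPA8 window 4 overlapping matches formed 2 longer elements, each of 3 units (GAA, TTC, GAA or TTC, GAA, TTC, with NN between the units). Windows were found for 9 of the 10 members, all but CRYAB, and for 7 of these 9 at least 1 window held GAANNTTC or TTCNNGAA. The element of 3 units was found for 2 of them, HSPA8 and HSP90AA1. Counted by window, as some members have several, 8 of the 12 windows of the members held the shorter element and 2 the longer one. Of all 35116 windows, 13.5% held the shorter element and 0.490% the longer one. BAG3 and HSPH1 had no match, which says only that these letters are not in their windows.

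HSPB1 mRNA was higher in KD than in CTRL, and its difference was larger than that of each of the other members. HSPB1 (ENSG00000106211) lies on the plus strand of chromosome 7 from 75931990 to 75933612 (GENCODE, hg19). Its FPKM was 612.0 in KD and 77.3 in CTRL, a ratio of 7.92. The log2 ratio of FPKM + 1, the scale of all log2 ratios below unless another is named, was 2.97. It rested on 5762 estimated counts in KD and 761 in CTRL. As shares of the column totals these gave a ratio of 6.46, with a 95% interval (exact binomial, counting error only) of 5.98 to 6.97. By FPKM, HSPB1 was the 243rd most abundant of all genes in KD and the 1478th in CTRL. Its log2 ratio ranked 40th among the 13741 genes tested, those whose FPKM averaged 1 or more over both columns. The 2 rows named as HSPB1 pseudogenes held 1 count in KD and 0 in CTRL, and no other gene of GENCODE release 44 shares exon bases with it.

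**Figure D1:**
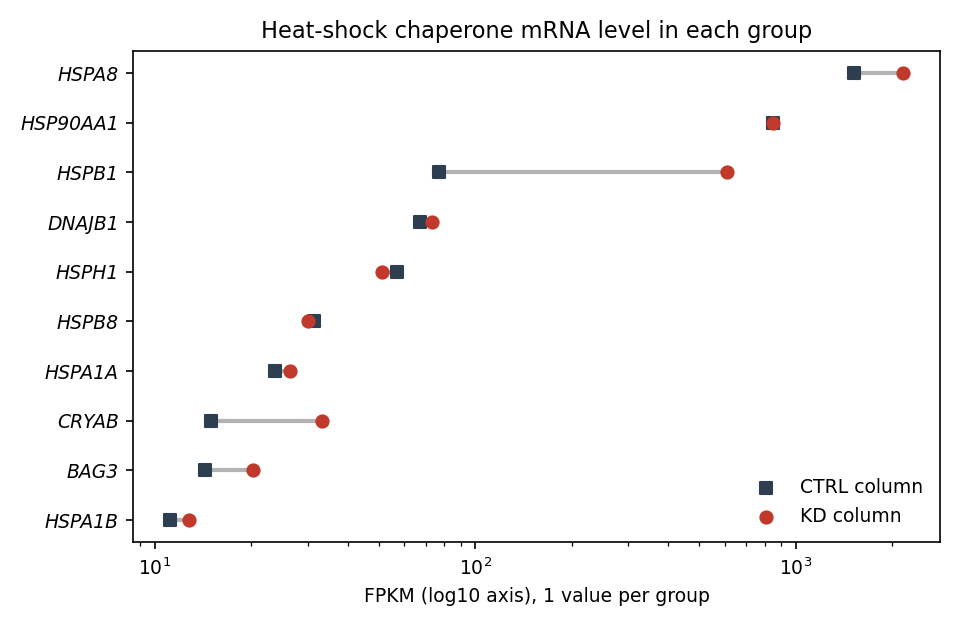
FPKM of each of the 10 genes (log10 axis) in the column labelled KD (circles) and in the column labelled CTRL (squares), with 1 value per gene and group and no error bars. The long bar belongs to HSPB1, at 77.3 and 612.0, while HSP90AA1, at 850.3 and 851.0, shows both symbols at the same place.

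CRYAB, another small heat shock protein, was also higher in KD, and HSPB8 was not. The FPKM of CRYAB (ENSG00000109846, chromosome 11, 111779288 to 111794446, minus strand) was 33.2 in KD and 15.0 in CTRL, a log2 ratio of 1.10. The counts were few, 230 and 79, and their shares gave a ratio of 2.48 with a counting interval of 1.91 to 3.25. The 2 measures did not scale alike, as CRYAB had 6.92 counts per FPKM unit in KD and 5.27 in CTRL. The log2 of that quotient, 0.39, is outside the range from -0.30 to 0.32 that holds the 5th to 95th percentile of 9534 genes with at least 100 counts in each column. CRYAB exons also share 598 bases with HSPB2 on the other strand, and the library kit does not mark strand, so reads there cannot be assigned to one gene. HSPB8, the partner of BAG3, had an FPKM of 30.1 in KD and 31.4 in CTRL, a log2 ratio of -0.06. In FPKM, HSPB1 was thus 20.3 times HSPB8 in KD and 2.46 times in CTRL.

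The HSP70 genes showed small differences beside that of HSPB1. HSPA8 (HSC70), the constitutive cytosolic HSP70, was the most abundant member, with an FPKM of 2164 in KD and 1522 in CTRL. Its log2 ratio was 0.51, and it ranked 85th among all genes in both columns. HSPA1A, the stress-inducible HSP70, had an FPKM of 26.5 in KD and 23.6 in CTRL, a log2 ratio of 0.16. HSPA1B had 12.8 and 11.2, a log2 ratio of 0.18. The coding sequences of HSPA1A and HSPA1B are nearly identical, so reads could have been divided between them in either proportion. Summed, they had an FPKM of 39.3 in KD and 34.8 in CTRL, a log2 ratio of 0.17. By count shares the sum gave a log2 ratio of -0.05, and the counting interval from -0.18 to 0.07 included equal shares. HSPA6, the most strictly inducible HSP70 gene, had 3 counts in KD and 2 in CTRL, for which no fold is given. In both columns the constitutive gene far exceeded the inducible one, with HSPA8 at 81.7 times HSPA1A in KD and 64.4 times in CTRL.

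HSP90AA1, which encodes the inducible cytosolic HSP90, had nearly the same FPKM in both columns. Its FPKM was 851.0 in KD and 850.3 in CTRL, a log2 ratio of 0.0012. Its counts, 34229 and 33970, gave a log2 ratio of -0.22 as shares of the totals, with a counting interval of -0.24 to -0.20. On that scale the median of all tested genes was -0.18, against 0.01 by FPKM. HSP90AB1, the constitutive partner, had an FPKM of 853.4 in KD and 705.0 in CTRL. The quotient of HSP90AA1 over HSP90AB1 was 0.997 in KD and 1.21 in CTRL.

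The genes that serve the HSP70 cycle did not follow HSPB1 either. DNAJB1, the HSP40 that is a standard readout of HSF1 activity, had an FPKM of 73.3 in KD and 67.4 in CTRL, a log2 ratio of 0.12. Its exons share 525 bases with TECR on the other strand, whose FPKM was 167.7 in KD and 119.6 in CTRL. HSPH1 (HSP110), a nucleotide exchange factor, had 51.3 and 56.9, a log2 ratio of -0.15. BAG3, which links HSP70 to HSPB8 in chaperone-assisted autophagy, had 20.3 and 14.3, a log2 ratio of 0.48. Of 7 genes listed for that form of autophagy, 5 passed the filter, and by FPKM none of these was past 1 or -1. Of all tested genes, 8.51% were at 1 or more and 3.27% at -1 or less. STUB1 was at -1.08 when the ratios were adjusted for GC and length, where 3.88% of genes were at -1 or less.

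**Figure D2:**
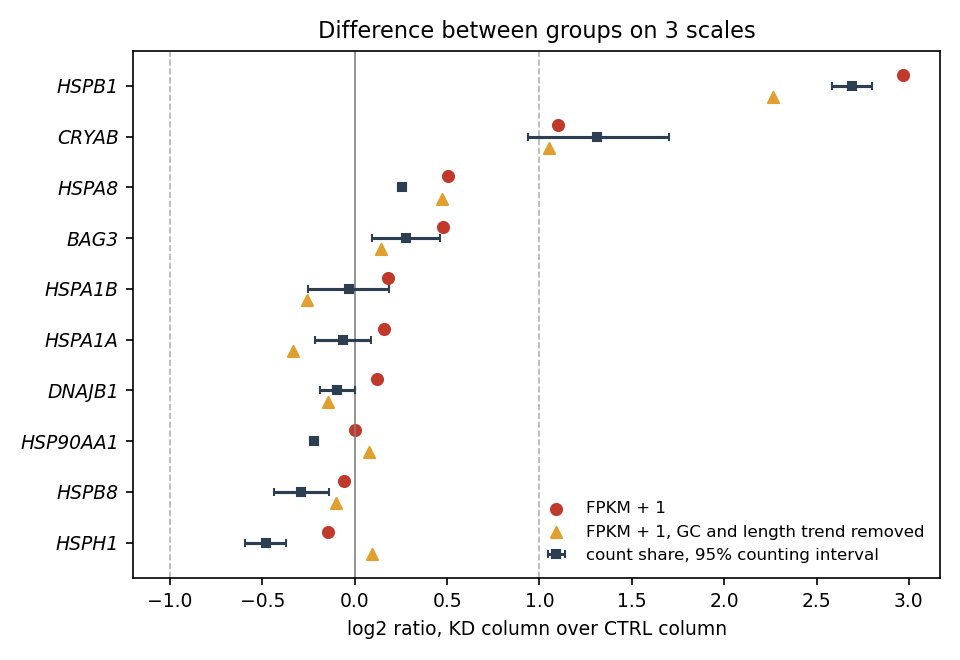
Log2 ratio of the KD column over the CTRL column for each gene by FPKM + 1 (circles), by shares of the column's counts (squares, with bars for the 95% exact binomial interval of the counts) and by FPKM + 1 after a GC and length trend was taken out (triangles). HSPB1 and CRYAB lie past the dashed line at 1 on all 3 scales, although the interval of CRYAB reaches 0.94, and the other 8 genes lie between the dashed lines.

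Against all genes, 2 of the 10 members, HSPB1 and CRYAB, had a log2 ratio of 1 or more, where 8.51% of the 13741 tested genes did, and 0 were at -1 or below, where 3.27% were. HSPB1 was picked for this value, so nothing is read from that count. The median of the other 9 members was 0.16, and that of all tested genes was 0.01. By FPKM 8 of the 10 members were above 0 and by counts over the column total 4 were, with CRYAB and HSPB1 past 1 on both scales. Of the 13741 tested genes, 7016 were above 0 by FPKM and 5244 by counts over the column total. HSPA1A, HSPA1B, HSP90AA1 and DNAJB1 were the 4 that changed sign, while HSPA8 and BAG3 stayed above 0 and HSPB8 and HSPH1 below it. On the count scale 4.66% of all genes were higher and 5.84% were lower by log2 1 or more. The summed FPKM of the 10 genes was 3874 in KD and 2669 in CTRL, and without HSPB1 it was 3262 and 2592. HSPB1 made up 15.8% of the sum in KD and 2.90% in CTRL.

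The difference of HSPB1 is given beside the base composition of its mRNA. Across 13298 genes the log2 ratio went with the GC content of the exons, with a Spearman rho of 0.449. This describes genes, which share both columns and are no replicates. When the genes were put into 4 bins of rising GC content, the median log2 ratio was -0.24 in the lowest bin and 0.48 in the highest. HSPB1, at 63.6% GC, belonged to the highest bin, and so did HSPA1A (59.8%), HSPA1B (58.8%), BAG3 (56.5%) and DNAJB1 (55.7%). Of the 3324 genes in that bin 21.0% were higher and 1.17% were lower by log2 1 or more. HSPB1 ranked 17th among them, and the other 4 members in that bin ran from 0.12 to 0.48. With a fitted quadratic trend in GC content and exon length taken out, HSPB1 had a log2 ratio of 2.27 and ranked 57th of 13298, while 4.95% of these genes were higher and 3.88% lower by log2 1 or more. On the same scale CRYAB, whose exons hold 49.5% GC, was at 1.05, HSPA8 at 0.47, BAG3 at 0.14, HSPA1A at -0.33 and HSPA1B at -0.26. The HSP70 genes of highest GC content were thus below 0 once the trend was removed, and HSPB1 and CRYAB were the 2 members that stayed past 1. GC content and length were taken over all annotated exons of a gene, 4388 bases for CRYAB, and not over the transcripts present. CRYAB, at 1.05, was close to the line.

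**Figure D3:**
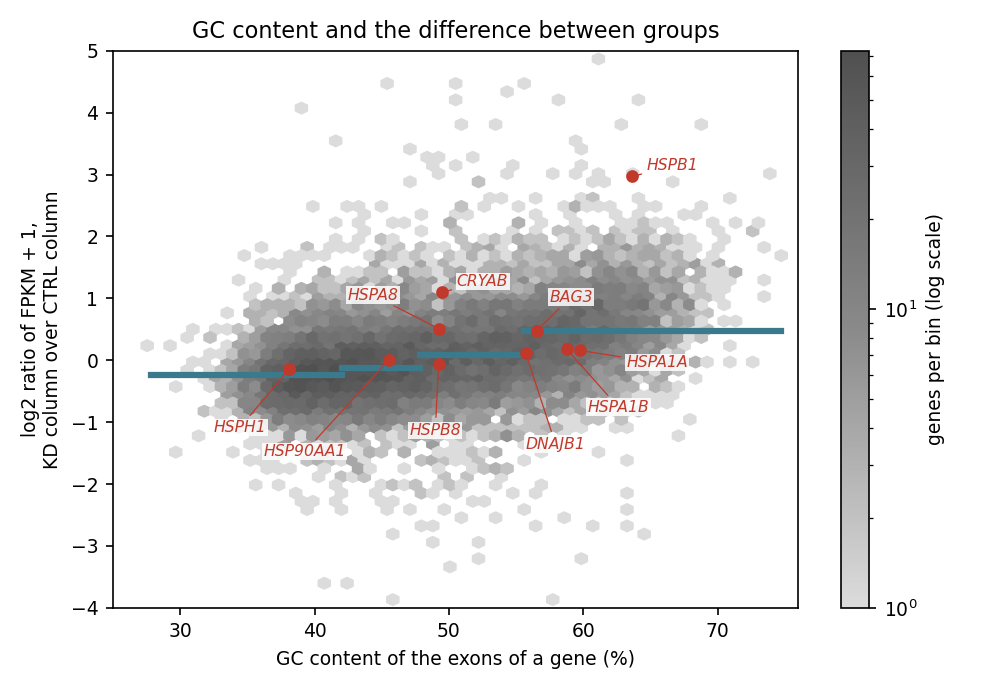
GC content of the exons of each gene (x axis, %) against its log2 ratio of FPKM + 1, KD over CTRL (y axis), with grey bins shaded by the number of genes, horizontal bars at the median of each of 4 bins of GC content, and the 10 members as labelled points. The bars climb from -0.24 to 0.48, and HSPB1, at 2.97, lies far above the bar of its bin. A further 11 genes lie outside the plotted range from -4 to 5.

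The wider small heat shock protein family held another gene that was higher in KD. HSPB7, a small heat shock protein best known from heart and skeletal muscle, had an FPKM of 254.3 in KD and 75.9 in CTRL, a log2 ratio of 1.73. Its counts were 6274 and 1845, and their shares gave a log2 ratio of 1.54 with a counting interval of 1.46 to 1.61. Once the GC and length trend was taken out it was at 1.22. The promoter window of HSPB7 held no match to GAANNTTC or TTCNNGAA. HSPB11, which works in intraflagellar transport, had 71.4 and 73.2, a log2 ratio of -0.03. HSPB2 did not pass the filter, with an FPKM of 0.966 in KD and 0.0693 in CTRL from 14 counts and 1 count, and its reads overlap those of CRYAB. Of the 11 family members, 5 passed the filter and 3 of these, HSPB1, HSPB7 and CRYAB, were higher by log2 1 or more, where 8.51% of all tested genes were. HSPB1 was chosen for its difference, and it and HSPB7 lie in the bin of highest GC content, where 21.0% were. Another 4 were listed at 0 in both columns. The FPKM of the family summed to 1002 in KD and 272.9 in CTRL. Of the 8 fibroblast and muscle markers, the 4 that passed the filter were above 0 by FPKM, where 7016 of the 13741 tested genes were. Their median log2 ratio was 0.89. ACTA2, smooth muscle actin, had an FPKM of 16.5 in KD and 3.31 in CTRL, a log2 ratio of 2.02. COL1A1, a collagen gene, had 5.96 and 2.61, and DCN, which encodes decorin, had 5.85 and 2.87. DES, the muscle intermediate filament gene, did not pass the filter, at 0.693 and 0.423. The part of these markers in the small heat shock protein values was not tested.

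By FPKM, none of the other chaperone families held a gene past 1 or -1. Of all tested genes, 8.51% were at 1 or more and 3.27% at -1 or less. Together the HSP70 and HSP110, HSP90, HSP40, BAG, cochaperone and chaperonin lists hold 67 genes, of which 61 passed the filter, and their log2 ratios ran from -0.97 to 0.79 with a median of 0.02. In the HSP70 and HSP110 family, 14 of 16 genes passed and the median was -0.16, with HSPA5, the HSP70 of the endoplasmic reticulum, at an FPKM of 189.0 in KD and 231.4 in CTRL. All 4 HSP90 genes passed, with a median of 0.14. The 13 of 17 HSP40 genes of classes A and B that passed had a median of 0.05, with DNAJA1, an HSF1 target, at 75.6 in KD and 110.6 in CTRL. The 6 BAG genes had a median of 0.03, the 14 other cochaperones of HSP70 and HSP90 one of 0.05, and the 10 chaperonin genes, which fold actin and tubulin in the cytosol or serve mitochondria, one of 0.12. On the count scale HSPA12A and TTC4 were lower by log2 1 or more, at -1.06 and -1.15, where 5.84% of all tested genes were. With the GC and length trend removed STUB1 and TTC4 were, at -1.08 and -1.03, where 3.88% of genes were.

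**Figure D4:**
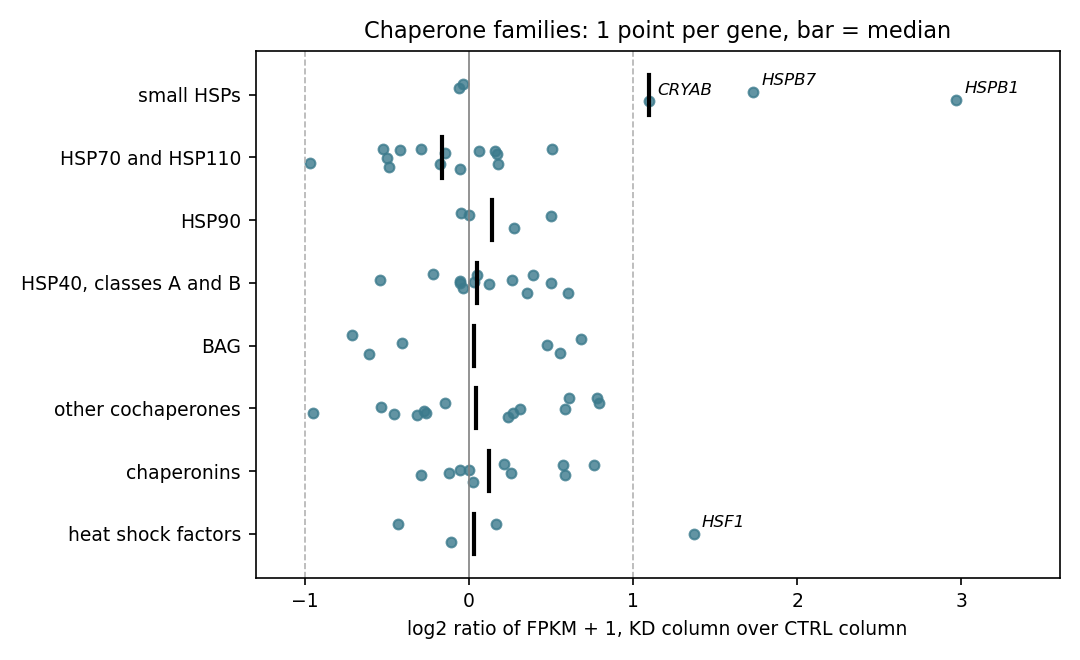
Log2 ratio of FPKM + 1, KD over CTRL, for the genes of 7 chaperone families and of the heat shock factors with a mean FPKM of at least 1, with 1 point per gene, black bars at the medians and dashed lines at -1 and 1. HSPB1, HSPB7 and CRYAB, all small heat shock proteins, and HSF1 are the only points past a dashed line. The heat shock factor list also holds HSBP1, which encodes a binding protein of these factors and not a factor.

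Among the heat shock factors, the mRNA of HSF1 itself was higher in KD. HSF1, the main activator of the response, had an FPKM of 60.7 in KD and 22.9 in CTRL, a log2 ratio of 1.37. Its exons hold 65.4% GC, and with the trend removed it was at 0.58, no longer past 1. HSF2 had an FPKM of 4.08 in KD and 3.52 in CTRL. Of 25 HSF1 target genes, 24 passed the filter and 2 were higher by log2 1 or more, again HSPB1 and CRYAB, a share near the 8.51% of all tested genes. The 15 targets with a value that are not members ran from -0.61 to 0.73 by FPKM. Their median was 0.26 by FPKM and 0.05 by counts over the column total, where that of all tested genes was 0.01 and -0.18. The abundance of HSF1 mRNA does not measure the activity of the protein, which was not measured here.

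Most genes beside HSPB1 did not share its difference. Within 300 kb on either side, measured between the lower hg19 coordinates of the genes, 6 other protein-coding genes passed the filter, with a median log2 ratio of 0.11. YWHAG, the nearest, was 24.1 kb away and had an FPKM of 57.9 in KD and 56.2 in CTRL. One neighbour, UPK3B, was past 1, at 1.66 from 90 and 17 counts, and it was 208 kb away. Around HSPB7, the 9 neighbours with more than 3 counts in a column ran from -0.17 to 0.74. Around CRYAB, the 11 neighbours ran from -0.94 to 1.44, with C11orf1 past 1.

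**Figure D5:**
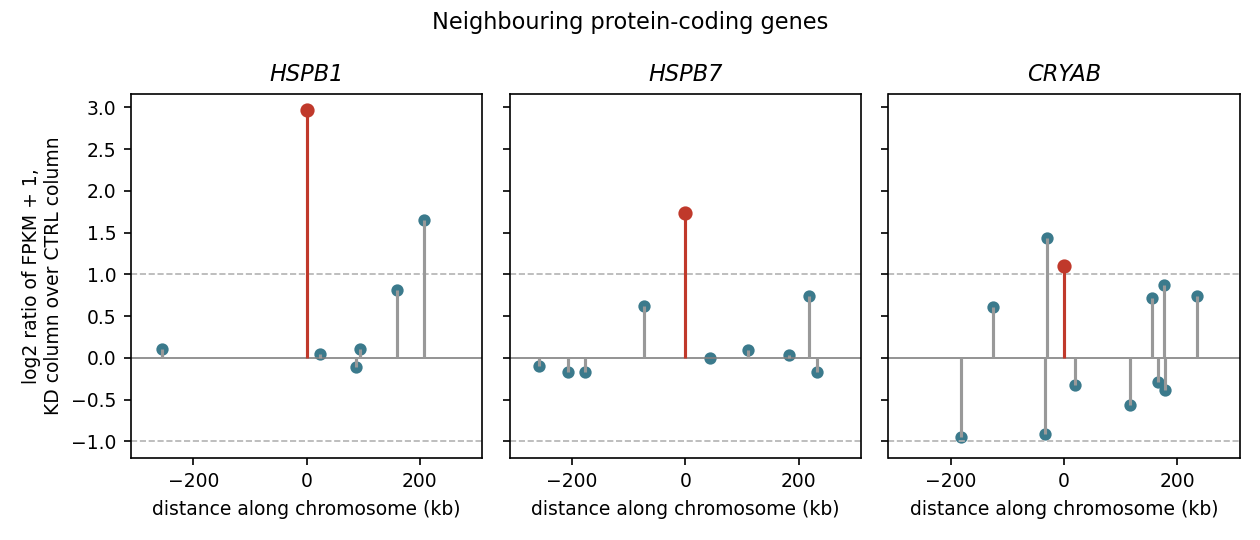
Log2 ratio of FPKM + 1, KD over CTRL (y axis), of HSPB1, HSPB7 and CRYAB (red, at 0 kb) and of the protein-coding genes within 300 kb of each (blue), by the distance in kb between the genes' lower coordinates (x axis). In the HSPB1 panel the nearest neighbour lies at 0.04 while HSPB1 is at 2.97.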

How the data were processed

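The data are 6 RNA-seq libraries, 3 per group, of which the deposited table holds 1 value per gene and group. As the submitters' processing notes state, the authors mapped reads with TopHat 1.4.1 to hg19 and calculated FPKM with Cuffdiff 2.2.0. FPKM and estimated counts were used as deposited by the authors, and how the libraries were combined is not given in the sources used here. The p-value, FDR and log2 fold change columns of the authors' own comparison, and their averaged FPKM columns, were deposited but not used. The library kit leaves strand unmarked.

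Log2 ratios of FPKM + 1 were computed where the FPKM averaged 1 or more over both columns. A difference is counted from a log2 ratio of 1. No test was possible with 1 value per group. Counting intervals are exact (Clopper-Pearson, 95%) and take each estimated count as a plain count. They cover counting error only, since each group has 1 value per gene. No molecular identifiers were used. Genes with at most 3 counts in either column have no fold. GC content, length, positions and exon overlaps come from GRCh37 with GENCODE release 44, matched by gene identifier for 96.8% of tested genes, and promoters come from RefSeq.

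The members and all gene lists were chosen with earlier results of these data known. Named genes are the members, PCBP1 and PCBP2, HSF1 and HSF2, and in each list up to 8 genes with the largest log2 ratios past 1 or -1 and up to 4 with the highest FPKM. HSPB2, HSPA6, HSPA12A, TTC4, TECR, HMOX1, ASNS, CHAC1, DES, the markers at 0 and the neighbours fall outside this rule. They were named after their values were seen, and the 300 kb window was set then too. Alternatives were a pseudocount of 0.1, no filter, a filter at an FPKM of 5, median centring, estimated counts scaled by the column total (with a pseudocount of 1), and a quadratic fit on GC content and on log2 length taken out. The functions were tested on simulated data. Versions were matplotlib 3.10.9, scipy 1.17.1, pandas 2.3.3 and numpy 2.4.6 under Python 3.11.15.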

Additional observations from a re-analysis of the deposited data

How the results depend on the processing

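The 29 results took 175 values under the other settings. Of these, 148 stayed within their limits, and 0 turned the direction of a difference of log2 1 or more. The limit for a gene was the half-width of its counting interval, for a list the interval of its median, for a count 1.5 times. For a single gene, dropping or raising the filter could not change the ratio. The limits of the list medians were wide. The median of the small heat shock proteins fell from 1.10 to 0 with no filter and still stayed within its limit. The log2 ratio of HSPB1 was 2.67 by counts over the column total and 2.27 once the GC and length trend was taken out, and it ranged from 2.27 to 2.98 over all settings. CRYAB ranged from 1.05 to 1.20. The genes higher by log2 1 or more numbered 1169, but 641 by counts over the column total and 658 with the trend removed. The genes lower by log2 1 or more numbered 450, but 791 with a pseudocount of 0.1, 292 when 1 of the columns had to exceed an FPKM of 5, where fewer genes were counted, and 803 by counts over the column total. For the others the cause was not tested. A further 20 values moved, all of single genes. Summing rows that share a symbol changed nothing, since each member has 1 row. No paired analysis was possible because each group has a single value per gene, and for the same reason no replicate could be left out. Depth limits HSPA6 and HSPB2, and CRYAB rests on 79 counts in the CTRL column.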

Other observations

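Genes linked to oxidative stress were lower in the column labelled KD by FPKM. Of 10 genes linked to the oxidative stress factor NRF2, 10 had a log2 ratio below 0, where 6725 of the 13741 tested genes did. Among the 10, 4 had one of -1 or less, where 3.27% of all tested genes did, and the median was -0.64. TXNRD1, which encodes cytosolic thioredoxin reductase, was at 80.6 FPKM under the label KD and 274.1 under CTRL, a log2 ratio of -1.75. SLC7A11, the cystine transporter, had 0.809 and 4.50, from 97 and 540 counts, a log2 ratio of -1.61. GCLM and GCLC, the subunits of the enzyme that starts glutathione synthesis, were at -1.12 and -1.07. By counts over the column total, 4 of the 10 were lower by log2 1 or more, against 5.84% of all genes. After the GC and length trend was taken out, 1 of the 9 that had a GC value was above 0, where 6405 of 13298 genes were. On that scale 3 of the 9 were lower by log2 1 or more, against 3.88% of all genes. These 3 were TXNRD1, SLC7A11 and HMOX1 (heme oxygenase, at -1.10 and named after its value was seen), while GCLM was at -0.90 and GCLC at -0.95. This list shares no gene with the 10 chaperones.

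Of 16 genes of the unfolded protein and ATF4 response, 2 were higher by log2 1 or more, SDF2L1 at 1.12 and TRIB3 at 1.04, where 8.51% of all tested genes were, and the median was 0.04. By counts over the column total 0 were higher, where 4.66% of all tested genes were. On that scale 1, ASNS (asparagine synthetase, named after its value was seen), was lower, at -1.17, where 5.84% were. After the GC and length trend was taken out, SDF2L1 and TRIB3 were no longer past 1, at 0.37 and 0.56. On that scale 1 gene, CHAC1, was lower by log2 1 or more, at -1.10, where 3.88% of genes were. CHAC1 had 26 counts in KD and 38 in CTRL, and it was named after its value was seen.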
